A study of Homo sapiens with 8 samples.

Results

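The globin genes and the globin chaperone gene AHSP were followed across 8 expression arrays of K562 and KBM5 cells. The 10 genes HBA1, HBA2, HBB, HBD, HBE1, HBG1, HBG2, HBZ, HBM and AHSP were looked up by symbol in the supplied probe annotation, and 8 of them had a probe set, among 17687 genes with 1 symbol. HBG1 and HBG2, the fetal globins, had none under their own symbol and were not analysed here, so the comparison by developmental stage covered 2 embryonic genes (HBZ and HBE1) and 4 adult genes (HBA1, HBA2, HBB and HBD). HBM, a minor alpha-like globin, and AHSP were kept apart.

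Haemoglobin is built from a pair of alpha-like and a pair of beta-like globin chains, each carrying heme. The alpha-like genes lie together on chromosome 16 and the beta-like genes on chromosome 11, and in each cluster embryonic genes are used first and adult genes later in development. AHSP binds free alpha-globin chains and keeps them from precipitating until a beta-like partner is available.

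Both lines are established human chronic myeloid leukaemia lines that carry the BCR-ABL1 fusion kinase, which imatinib (IM) inhibits. In each line there was 1 array for the combination (OR21 at 100 nM for 3 days, followed by IM), 1 for IM alone (1000 nM for 24 hours), 1 for OR21 alone (100 nM for 3 days) and 1 for the untreated control. OR21 is a demethylating agent according to the series title, and for the combination its dose is known from the treatment protocol and not from the sample label. All cells were grown in RPMI-1640 with serum.

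Values are probe set intensities on a linear scale, and background was set on each array at the 95th percentile of 612 negative control probe sets. Background lay between 161 and 263, and the median intensity of all probe sets between 77.8 and 83.3. Of the 7 measured erythroid markers fixed for K562, 7 were above background with the combination and with IM, 6 with OR21 and 5 in the control. GATA1 was above background on 4 of 4 K562 arrays. The summed intensity of 7 erythroid markers lay between 38988 and 154539 in K562 and between 1788 and 19984 in KBM5. In KBM5 only 1 of these 7, TFRC, was above background on each array. Granulocytic and monocytic markers showed the opposite, with a summed intensity of 1867 to 3132 over 12 genes in K562 and 73619 to 351716 in KBM5. With 1 array per line and treatment, no spread between repeats was measured. P-values come from limma with a baseline, an OR21 term and an IM term for each line, in which the 2 disjoint array pairs of a drug stand in for repeats. They set the mean of the 2 pairs against a spread taken from how far pairs differ in both lines together. Limma draws this spread toward that of all genes. It stands for repeat error only if both drugs add in log2, and the combination fell short of that sum for most globins in K562. The KBM5 part of the spread comes from values below background for the listed genes. Precision is limited by there being 8 arrays. Fewer globin-bearing cells and less globin RNA per cell cannot be told apart in these bulk samples.

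The first question was whether the lines express globin genes at all. K562 expressed most of them, and no listed gene rose above background in KBM5. In K562, HBZ, HBE1, HBA1, HBA2 and HBB were above background on 4 of 4 arrays, HBD on 3 of 4 and AHSP on 2 of 4, while HBM was below it on 4 of 4. In KBM5 all 8 genes were below background on 4 of 4 arrays, the highest value being 189.7 for HBA1 in the control, where background was 263. Averaged over the 4 treatments, K562 exceeded KBM5 by at least 1348-fold for HBA2, at least 1163-fold for HBA1, at least 1033-fold for HBZ, at least 163.0-fold for HBE1, at least 58.6-fold for HBB and at least 2.40-fold for HBD. These are lower bounds, in which each KBM5 array was set to its own background. In limma 7 of 8 genes were called higher in K562 (adjusted p between 1.18e-10 and 9.67e-07), where 22.7% of all genes were higher and 20.5% lower. AHSP was among them with a log2 difference of 2.79 ± 0.16 (SE), but it was above background on only 2 of the 4 K562 arrays and no bound above 1-fold could be given.

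**Figure D1:**
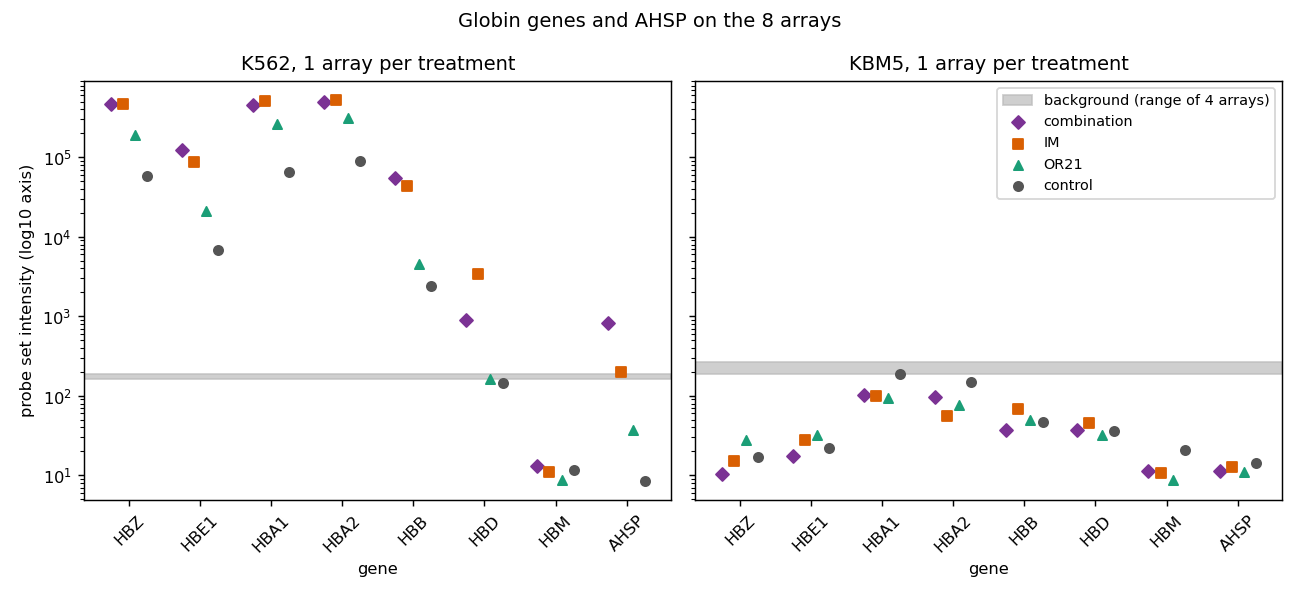
Probe set intensity (log10 axis) of the 8 measured genes in K562 (left) and KBM5 (right), with 1 point per array for the combination, IM, OR21 and control, and the range of background over the 4 arrays of a line as a grey band. In K562 the combination and IM points lie above those of OR21 and control for each gene but HBM. In KBM5 every point lies below the background of its own array, with the HBA1 control point inside the lower edge of the band.

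The embryonic genes were bright in K562 before any drug and rose with IM. HBZ, which encodes the zeta chain used in place of alpha in the early embryo, had an intensity of 473566 with the combination and 467477 with IM, against 193282 with OR21 and 58796 in the control. HBE1, which encodes the epsilon chain, had 123758 with the combination and 86338 with IM, against 21391 with OR21 and 6827 in the control. For both genes the 2 arrays with IM were above the 2 without, and the control was the lowest. How many of all genes share this order was not counted. Over the 2 pairs, IM raised HBZ by 2.14 ± 0.40 on the log2 scale (4.41-fold, limma adjusted p = 0.00611) and HBE1 by 3.10 ± 0.34 (8.55-fold, adjusted p = 0.000327).

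The adult alpha genes behaved like HBZ. HBA1 and HBA2 encode the same alpha chain, are near-identical copies, and their probe sets may share signal, so they are not independent readings. HBA1 had 454281 with the combination and 514885 with IM, against 261397 with OR21 and 66173 in the control. HBA2 had 499975 with the combination and 524909 with IM, against 311133 with OR21 and 89320 in the control. The IM arrays were above the others for both, by a smaller margin over OR21 than over the control. This order was not counted over all genes either. IM raised HBA1 by 1.88 ± 0.44 (3.68-fold, limma adjusted p = 0.0182) and HBA2 by 1.62 ± 0.46 (3.07-fold, adjusted p = 0.0438). These probe sets stood near the top of the arrays: with IM, 6 of the 24351 probe sets were brighter than HBA2, 9 brighter than HBA1 and 14 brighter than HBZ. Whether their signal was capped was not tested.

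The adult beta-like genes HBB and HBD also rose with IM. HBB, the beta chain of adult haemoglobin, had 54465 with the combination and 43915 with IM, against 4551 with OR21 and 2396 in the control. HBB rose by 3.89 ± 0.29 with IM (14.8-fold, limma adjusted p = 4.06e-05). HBD, the delta chain of the minor adult haemoglobin, had 901 with the combination and 3443 with IM, against 162.6 with OR21, just above a background of 162.5, and 146 in the control, below its background of 161. HBD rose by 3.51 ± 0.40 (limma adjusted p = 0.000398), where 1 of the 2 arrays without IM was below background, which makes the size approximate. Against that control array the IM array was at least 21.4-fold higher.

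The chaperone rose from background with IM. AHSP had 828 with the combination and 199 with IM, against 36.6 with OR21 and 8.48 in the control. It was above background only on the 2 arrays with IM, and with IM alone just above a background of 185.6. Its IM effect was 4.53 ± 0.23 in limma (adjusted p = 5.74e-06), and the bound was at least 2.51-fold higher. HBM stayed between 8.74 and 13.0 on the 4 K562 arrays, and its fitted IM effect of 0.25 ± 0.33 had an adjusted p of 0.701, so no change was detectable at this level.

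In all, 7 of the 8 measured genes were called higher with IM in K562 and none lower, where 5.34% of all genes were higher and 8.05% lower. On the intensities as given, HBZ, HBE1, HBB, HBD and AHSP were at least 2-fold higher in both pairs, as were 2.01% of all genes. For AHSP both arrays without IM were below background. Its lower bound was 1.24-fold for IM over control and 5.10-fold for the combination over OR21, so 2-fold was not shown in the first pair. The summed intensity of the 7 erythroid markers was 154539 with the combination and 141363 with IM, against 56094 with OR21 and 38988 in the control. ALAS2 alone gave 75928 of the sum with IM and 383 of that in the control. Of the 7 markers 5 were called higher with IM, while GATA1 and TFRC were not called. The part of these markers in the result was not tested. None of 6 megakaryocytic markers was above background on any array. The median log2 difference was 2.62 for the embryonic genes and 2.70 for the adult genes, and 0.07 over all genes. By chain type, in the pair without OR21 the alpha-like genes HBZ, HBA1 and HBA2 rose by 2.56 to 2.99 and the beta-like genes HBE1, HBB and HBD by 3.66 to 4.56. In the pair with OR21 on both arrays the ranges were 0.68 to 1.29 and 2.47 to 3.58. These ranges did not overlap in either pair, but they compare probe sets of different brightness, and the difference between chain types was not tested. How often such small groups separate over all genes was not counted. HBA1 and HBA2 are not independent readings, and the 4.56 is HBD over a control below background. The minor alpha-like genes HBM and HBQ1 were left out of the ranges. Within a chain type, HBZ exceeded HBA1 by 0.03 and 0.50 in the pairs without and with OR21, and HBE1 fell short of HBB by 0.54 and 1.05 (log2 differences of -0.54 and -1.05). The calls for HBZ, HBA1 and HBA2 rested on the pair without OR21. Without the K562 control array or without the K562 IM array, 4 of the 8 genes were called, namely HBE1, HBB, HBD and AHSP. HBA1 and HBA2 also lost their calls with trend and robust moderation (adjusted p of 0.0661 for HBA1 and 0.170 for HBA2) and with log2(value + 16) (0.0574 for HBA1 and 0.0934 for HBA2), which left 5 genes, and HBA2 did after quantile normalization (0.0504).

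**Figure D2:**
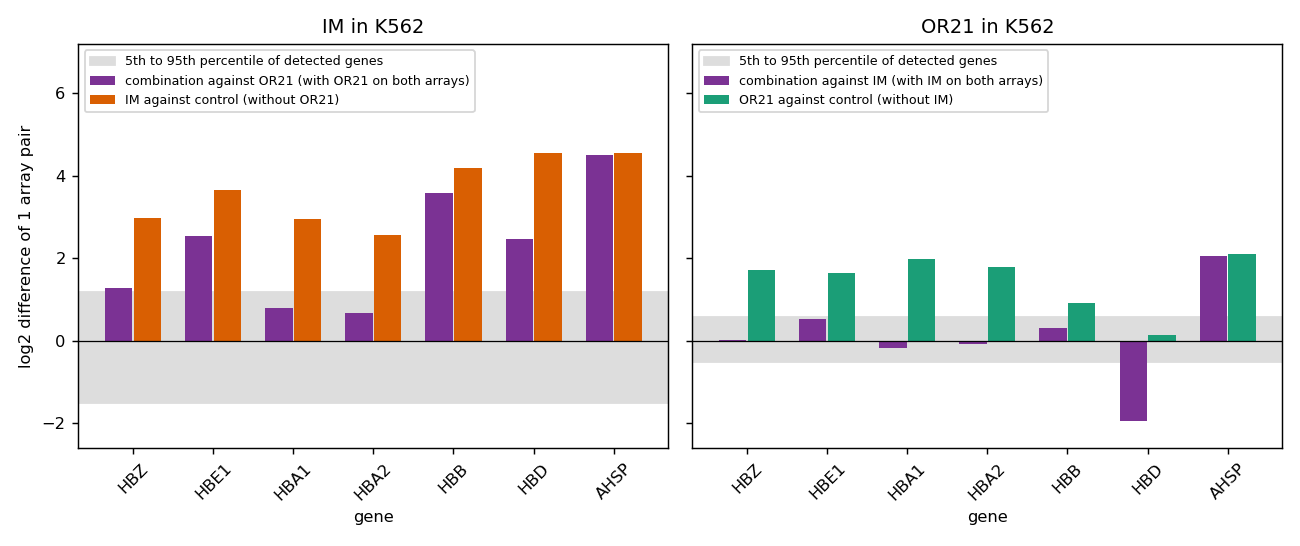
Log2 difference of each gene in single K562 array pairs, for IM (left) with and without OR21 on both arrays and for OR21 (right) with and without IM on both arrays. The grey band spans the 5th to 95th percentile of the 6190 genes above background on all 4 K562 arrays, taking the wider limit of both pairs. IM bars are positive for all 7 genes shown, while OR21 bars reach 1.65 to 1.98 for HBZ, HBE1, HBA1 and HBA2 without IM and -0.18 to 0.52 with it.

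OR21 alone raised the embryonic and alpha globins in the single pair of arrays without IM. OR21 over control was 3.95-fold for HBA1, 3.48-fold for HBA2, 3.29-fold for HBZ, 3.13-fold for HBE1 and 1.90-fold for HBB. These compare 1 array with 1 array and have no test. Of the 7299 genes above background on either array, 1.58% were at least 2-fold higher, and so were 4 of the 6 listed globin genes among them (all but HBB and HBD). HBD had 162.6 with OR21 and 146 in the control. When IM was present, OR21 added little: the combination over IM was 1.43-fold for HBE1, 1.24-fold for HBB, 1.01-fold for HBZ, 0.953-fold for HBA2 and 0.882-fold for HBA1. HBD went the other way, with 901 in the combination against 3443 with IM alone, which is 3.82-fold lower, where 0.33% of 6969 genes were at least 2-fold lower. AHSP was 4.15-fold higher in the combination than with IM alone, where its value was just above background. Of the 6969 genes 1.05% were at least 2-fold higher. The control array enters both the IM and the OR21 value without the other drug.

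Averaged over both pairs, limma called 1 of the 8 genes for OR21 in K562, where 0.0905% of all genes were called higher and 0% lower (863 had an unadjusted p under 0.05). That gene was AHSP, with 2.08 ± 0.23 (adjusted p = 0.0065), and only 1 of the 2 arrays on each side, the combination and the IM array, was above background. The call was lost when any 1 of the 4 K562 arrays was left out (adjusted p between 0.13 and 0.301) and with log2(value + 16) (0.387). HBE1 had 1.08 ± 0.34 (adjusted p = 0.728), and HBD had -0.89 ± 0.40 with HBA1, HBA2, HBZ and HBB between 0.62 and 0.90 (adjusted p = 0.999 for these 5). The 95% intervals reached up to 1.89 for HBA2, 1.87 for HBA1 and 1.84 for HBE1.

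The combination fell short of the sum of the single drugs for most globins. On the log2 scale the shortfall (combination minus OR21 minus IM plus control) was -2.16 for HBA1, -2.08 for HBD, -1.87 for HBA2, -1.70 for HBZ, -1.13 for HBE1 and -0.62 for HBB. Over the 6190 genes above background on all 4 K562 arrays the 5th to 95th percentile ran from -0.68 to 0.73, and 1.34% of them were at -1 or less. For AHSP no departure can be read, because its OR21 and control arrays were below background. One array per treatment leaves no test of these values within a line. HBA2, HBA1 and HBZ, the brightest of the listed genes with IM, were among the 4 with the largest shortfall, and the part of brightness in this was not tested. The HBD value uses a control array below background.

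**Figure D3:**
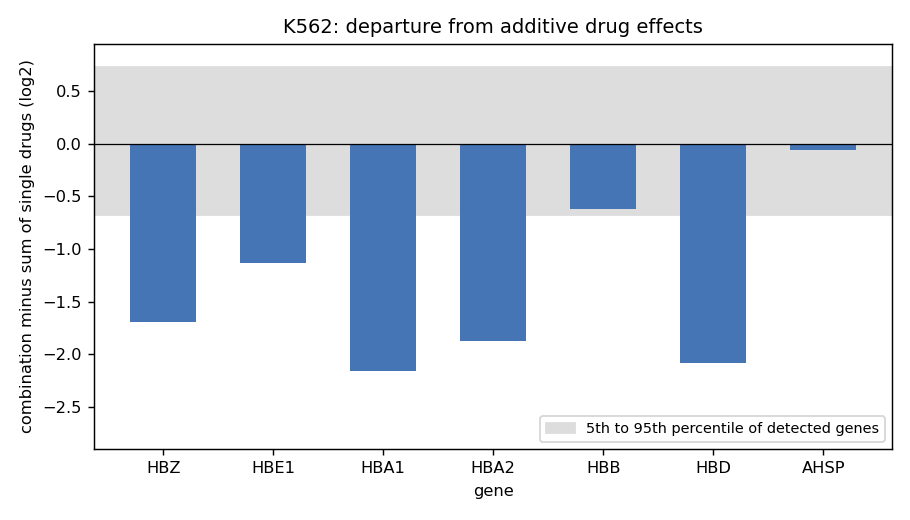
Departure of the K562 combination from the sum of both single drugs on the log2 scale, 1 bar per gene from 4 arrays, with the 5th to 95th percentile of the 6190 detected genes in grey. HBA1, HBD, HBA2, HBZ and HBE1 lie below the band and HBB inside it, while the AHSP bar uses 2 arrays below background and the HBD bar 1.

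In KBM5 no globin gene was called with IM or with OR21, where 10.8% of all genes were called higher and 10.6% lower with IM, and 0.486% higher and 0.0565% lower with OR21. None of the 8 had an unadjusted p under 0.05 in either contrast. All were below background on every array, so folds are not given. The IM effect differed between K562 and KBM5 in limma for 6 of the 8 genes (where 4.9% of all genes had a higher effect in K562 and 5.25% a lower one), by 4.59 ± 0.33 for AHSP, 3.82 ± 0.41 for HBB, 3.37 ± 0.48 for HBE1, 3.23 ± 0.56 for HBD, 2.93 ± 0.57 for HBZ and 2.30 ± 0.62 for HBA1 on the log2 scale (adjusted p between 6.82e-05 and 0.0418). HBA2, at 2.16 ± 0.66, had an adjusted p of 0.0655. For OR21 the lines differed in AHSP alone among the 8 (2.37 ± 0.33, adjusted p = 0.0264, where 0.0565% of all genes were called higher and 0.0452% lower). This call was lost without any 1 of the 4 K562 arrays (adjusted p between 0.222 and 0.283) and with log2(value + 16) (0.370). Because KBM5 sat at background, these sizes compare a change in K562 with noise in KBM5.

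Promoter sequences were available for HBD and HBM, which are shown because HBD rose with IM while HBM, in the cluster of the rising alpha genes, stayed at background, and because OR21 acts on DNA methylation, which falls on CpG pairs. Both run from 250 bases before to 50 bases after the annotated start, from RefSeq on GRCh38.p14, HBD at chr11:5234434-5234733 on the minus strand and HBM at chr16:165728-166027 on the plus strand. Capitals mark 5 motifs on either strand, GATAA (the core bound by GATA factors), CCAAT (bound by NF-Y), CACCC (bound by Kruppel-like factors), TATAA (the TATA box) and ATAAAA (a variant of it).
HBD: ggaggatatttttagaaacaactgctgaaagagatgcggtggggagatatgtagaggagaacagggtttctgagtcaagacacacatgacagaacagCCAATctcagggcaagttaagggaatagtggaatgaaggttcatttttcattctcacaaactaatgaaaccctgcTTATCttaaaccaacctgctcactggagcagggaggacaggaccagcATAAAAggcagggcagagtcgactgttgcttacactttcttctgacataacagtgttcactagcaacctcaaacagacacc
HBM: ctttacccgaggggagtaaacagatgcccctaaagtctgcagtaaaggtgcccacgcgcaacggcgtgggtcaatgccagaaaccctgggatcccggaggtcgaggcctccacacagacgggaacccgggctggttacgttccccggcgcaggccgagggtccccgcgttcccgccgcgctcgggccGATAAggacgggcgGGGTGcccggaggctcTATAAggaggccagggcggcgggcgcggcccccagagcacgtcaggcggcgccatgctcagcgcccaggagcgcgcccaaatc
The HBD window holds CCAAT with its first base at -153 from the start site, GATAA on the opposite strand at -78 and ATAAAA at -31. The HBM window holds GATAA at -63, CACCC on the opposite strand at -49 and TATAA at -33. Of 35116 promoters of this length, 22.7% hold GATAA, 34.6% CCAAT, 59.9% CACCC, 20.4% TATAA and 16% ATAAAA, overlaps between TATAA and ATAAAA included. The HBD window has 2 CpG pairs and the HBM window 33, against a median of 14. The 2-CpG gene had 162.6 with OR21 and 146 in the control in K562, and the 33-CpG gene 8.74 with OR21 and 11.6 in the control. The HBD control and both HBM values were below background, so no change with OR21 alone can be read from them.

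Genes beside the clusters were compared with the globins, from 2 lists of neighbouring genes. The alpha-globin list also holds HBQ1, a globin gene of the cluster itself. Of the 12 measured genes on this list 2 were called higher with IM in K562 and 1 lower. In the beta-globin list 1 of 14 was higher and 3 lower, of which 1 was above background on any K562 array. Over all genes 5.34% were higher and 8.05% lower. NPRL3, whose introns carry the distal alpha-globin enhancers, lies next to HBZ and had 3216 with the combination and 2870 with IM, against 1040 with OR21 and 879 in the control of K562. It rose by 1.67 ± 0.32 with IM (limma adjusted p = 0.00661), and over all treatments it was at least 7.86-fold higher in K562 than in KBM5, where it was below background on 4 of 4 arrays. FAM234A, on the other side of the cluster, rose by 1.68 ± 0.24 (adjusted p = 0.00144) and also rose in KBM5 by 1.17 ± 0.24 (adjusted p = 0.00587). LUC7L, which lies between the cluster and FAM234A, was above background on 4 of 4 K562 arrays. Its IM effect there was -0.22 ± 0.28 (limma adjusted p = 0.683). POLR3K, on the NPRL3 side, fell by 1.60 on the log2 scale in K562 and was at least 3.31-fold lower in KBM5. HBQ1, the theta globin gene of the cluster, had 436 with the combination and 288 with IM, against 236 with OR21 and 186 in the control, and its IM effect of 0.76 ± 0.45 did not pass (adjusted p = 0.320).

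The list around the beta-globin cluster holds olfactory receptor genes and the genes TRIM5, TRIM6 and TRIM22. Signal was above background on a K562 array for 4 of its 14 genes, all olfactory receptor genes, and on a KBM5 array for none. OR51B4, the first protein-coding gene beyond HBE1, had 7667 with the combination and 7960 with IM, against 3588 with OR21 and 2027 in the control, and it rose by 1.53 ± 0.27 (limma adjusted p = 0.00427). OR51B5, the third, had 48257 with the combination and 44612 with IM, against 43106 with OR21 and 38074 in the control, and its IM effect was 0.20 ± 0.24 (adjusted p = 0.665). In KBM5 both were below background on 4 of 4 arrays, and K562 exceeded KBM5 by at least 199.95-fold for OR51B5 and at least 21.2-fold for OR51B4. On the HBB side the nearest 8 protein-coding genes were below background on all 4 K562 arrays.

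**Figure D4:**
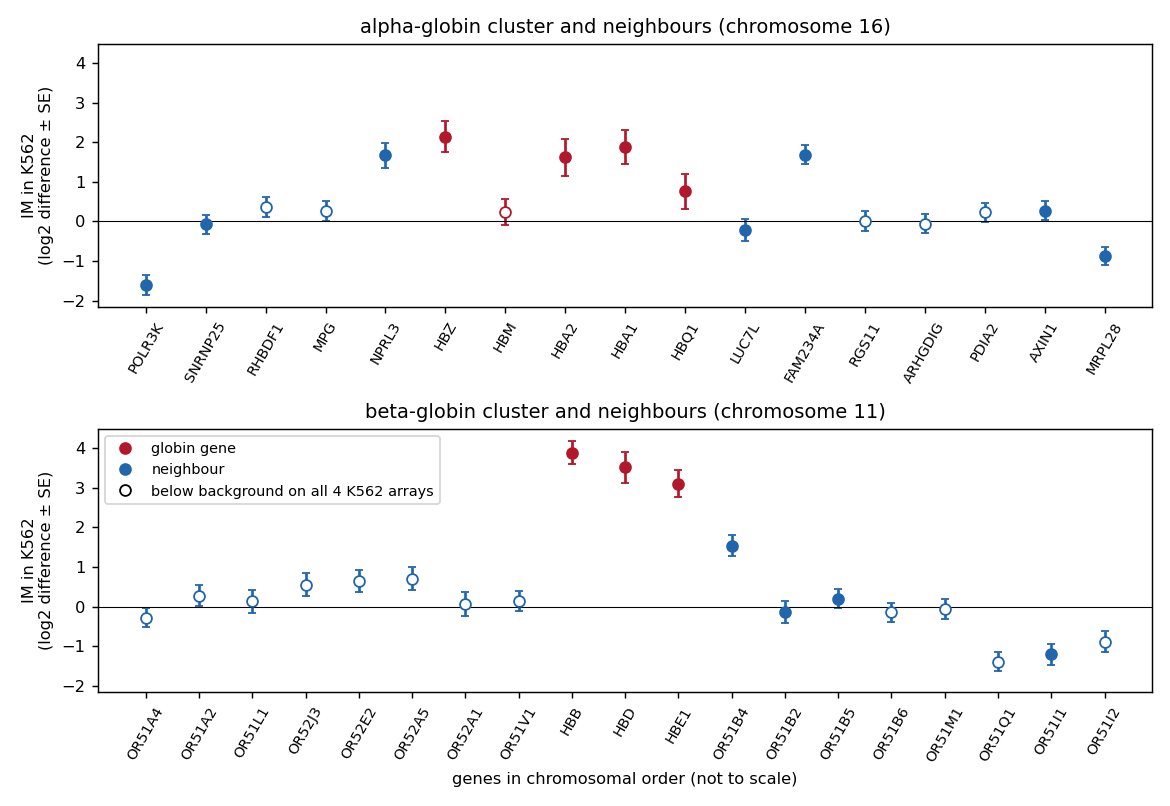
IM effect in K562 (log2 difference ± SE, limma) for measured genes in chromosomal order around the alpha-globin (top) and beta-globin (bottom) clusters, with open points for genes below background on all 4 K562 arrays. Apart from the globins, NPRL3, FAM234A and OR51B4 are the detected genes more than 1 above zero, at 1.67, 1.68 and 1.53.

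Among 36 measured regulators of globin switching, 10 were called higher and 5 lower with IM in K562 (5.34% and 8.05% of all genes). The list median was 0.08, against 0.07 over all genes. TAL1 (1.89 ± 0.30) and LMO2 (1.62 ± 0.26), partners of GATA1 in erythroid complexes, rose, as did KLF1 (1.54 ± 0.28), the Kruppel-like activator of HBB, and EIF2AK1 (1.499 ± 0.25), the heme-regulated kinase of red cell precursors (limma adjusted p between 0.00257 and 0.00574). The progenitor factors GATA2, at least 6.75-fold lower, and MYB (-1.99 ± 0.24) fell, and so did LIN28B (-2.02 ± 0.24), an RNA-binding protein of the fetal programme, and the arginine methyltransferase gene PRMT5 (-1.91 ± 0.24). GATA1 itself did not pass (-0.05 ± 0.24, adjusted p = 0.93), with 13517 in the combination and 10621 with IM, against 14713 with OR21 and 10445 in the control. BCL11A, the repressor of fetal globin genes, named after its values were seen, was below background on 4 of 4 K562 arrays and had 2001 to 3956 on the 4 KBM5 arrays, at least 17.4-fold lower in K562.
In KBM5, 8 of the 36 regulators were called higher and 5 lower with IM (10.8% and 10.6% of all genes). NFE2 (2.08 ± 0.28), NR2C1 (1.31 ± 0.27), LDB1 (1.06 ± 0.27) and ZBTB7A (0.98 ± 0.26) were the largest rises. PRMT5 (-2.12 ± 0.24), DNMT1 (-2.001 ± 0.23), GATA2 (-1.79 ± 0.30, above background on 1 of 2 arrays of each side) and HDAC2 (-1.11 ± 0.24) were the largest falls. KLF1 was below background on 4 of 4 KBM5 arrays, and its IM effect differed between K562 and KBM5 by 1.70 ± 0.40 (adjusted p = 0.0239). With OR21, none of the 36 was called in K562, where 0.0905% of all genes were called higher and 0% lower. So few calls over all genes leave nothing to read from this count. In KBM5 GATA2 was the 1 called, at least 4.07-fold higher, where 0.486% of all genes were called higher and 0.0565% lower.

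Most enzymes of heme synthesis, which supplies the group each globin chain binds, rose with the globins in K562. Of 8 measured enzymes 6 with signal above background were called higher with IM and none lower (5.34% and 8.05% of all genes), with a list median of 2.32, against 0.07 over all genes. ALAS2, the red cell form of the first enzyme, had 90007 with the combination and 75928 with IM, against 4611 with OR21 and 383 in the control, and rose by 5.96 ± 0.57. FECH, which inserts iron, rose by 3.35 ± 0.41 and PPOX by 3.29 ± 0.23 (limma adjusted p of all 3 between 2.96e-05 and 0.000546). ALAD was called as well but was below background on each K562 array. OR21 alone had ALAS2 at 12.0-fold over the control in 1 array pair, while its OR21 effect over both pairs was 1.92 ± 0.57 (adjusted p = 0.686). In KBM5, ALAS1 was the detected enzyme called (0.97 ± 0.28, adjusted p = 0.0294). In K562 ALAS1 went the other way without being called. It had 185 with the combination and 149 with IM, below background there, against 293 with OR21 and 329 in the control. Of 21 red cell proteins, 17 rose with IM in K562 and none fell (5.34% and 8.05% of all genes). In KBM5 2 rose and 3 fell, where 10.8% of all genes rose and 10.6% fell. SLC4A1, the anion exchanger of the red cell membrane, was at least 9.81-fold higher with IM in K562, and CA1, a red cell carbonic anhydrase, at least 18.0-fold higher. TFRC, the transferrin receptor through which red cell precursors take up iron, fell by 3.44 on the log2 scale in KBM5 (adjusted p = 1.53e-05) and had a difference of 0.21 ± 0.25 in K562 (adjusted p = 0.671). RHCE, a Rh blood group gene, was the 1 of the 21 called for OR21 in K562 (2.15 ± 0.28, limma adjusted p = 0.0253). Over all genes 0.0905% were called higher there and 0% lower. Its values were 11431 with the combination and 3691 with IM, against 3670 with OR21 and 578 in the control. Of 7 heme breakdown and export genes, 1 was called higher with IM in K562, BLVRB (1.57 ± 0.30), and none lower. Over all genes 5.34% were higher with IM and 8.05% lower. Globins used outside red cells (MB, CYGB, NGB and ADGB) were below background on all 8 arrays.

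**Figure D5:**
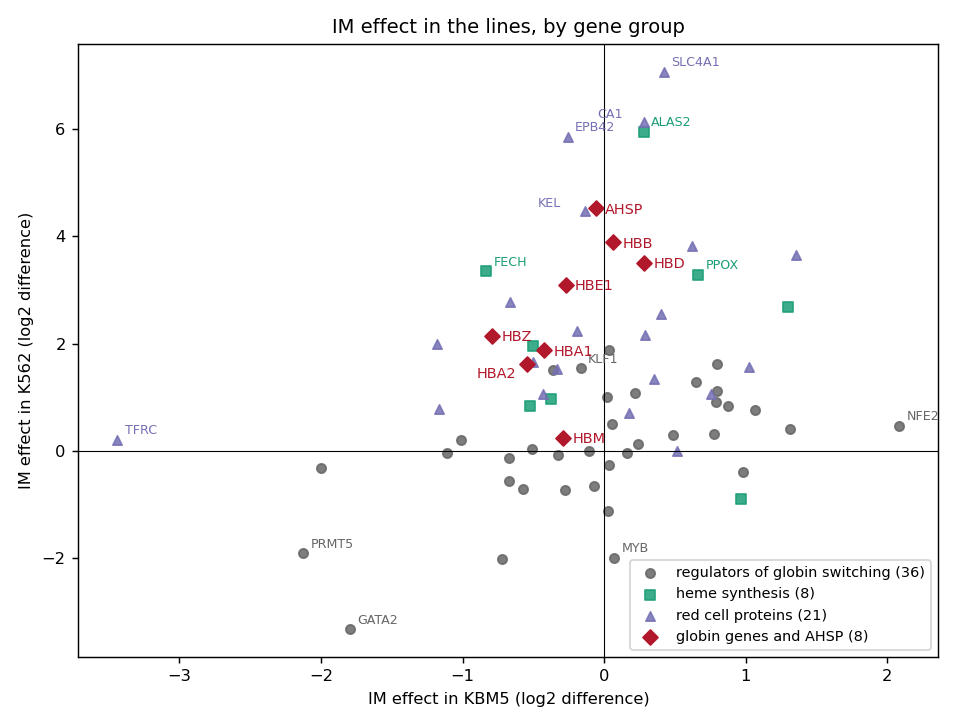
IM effect in K562 (vertical axis) against IM effect in KBM5 (horizontal axis), both as log2 differences from limma, for the 8 measured globin and chaperone genes, 36 regulators, 8 heme enzymes and 21 red cell proteins. Globins and AHSP lie between 0.25 and 4.53 vertically and between -0.79 and 0.28 horizontally, where all 8 are below background in KBM5.

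Likeness of pattern was measured as the root mean square difference of log2 values over the 8 arrays, each gene centred on its own mean, against the mean of the 5 globins above background on at least 4 arrays. Of 7094 genes outside the set, the nearest were RHAG (0.75), a Rh-associated channel of the red cell membrane, MYL4 (0.89), an embryonic and atrial myosin light chain, OR51B5 (0.98), DLK1 (1.02) and HEMGN (1.06), a nuclear protein of red cell precursors. For HBB alone the nearest was KEL, a blood group antigen gene, at 0.37. It had 28322 with the combination and 33132 with IM, against 2173 with OR21 and 870 in the control of K562. RHAG was the nearest to HBA1 (0.72) and HBA2 (0.64), MYL4 to HBE1 (0.78) and OR51B5 to HBZ (1.30). The measure is a description over arrays that fall into 2 lines, so it is set largely by which genes K562 expresses and KBM5 does not.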

How the data were processed

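Expression in K562 and KBM5 was read from 1 deposited table of linear probe set intensities (24351 probe sets, 8 arrays); how the authors summarized and normalized these intensities is not stated in the labels or the file. Biotin labelling is per the labels. Gene names came from the supplied probe annotation (17709 probe sets with 1 symbol, 17687 genes), and the brightest probe set was used for the 20 genes with more than 1. Values were taken as log2 without further normalization and fitted over all genes with limma 3.58.1 in R 4.3.3 (2 residual and 8.309 prior degrees of freedom). Benjamini-Hochberg adjustment ran over all 17687 genes within each contrast, and calls needed an adjusted p below 0.05. The fit was run on simulated data with known changes. In these data the drugs added in log2, so the run could not test that assumption. Where one side was below background on every array, a fold is a lower bound: the brighter side's mean over the background of the other side's arrays.

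The members and lists were chosen with earlier results of these data known. All measured members are named, and from other lists up to 4 largest called rises and falls per line with IM and up to 2 with OR21, with the genes nearest in pattern. Array pairs are single comparisons with no test. Alternatives were quantile normalization, brighter genes alone, moderation with a trend and robust fitting, log2(value + 16), a shared OR21 by IM term, the mean of probe sets, each array left out in turn, the 99th percentile as background, and limits of 1.5-fold and 3-fold beside 2-fold. The order of neighbouring genes and the promoter sequences come from RefSeq on GRCh38.p14; the build of the array design is not given in the sources used here.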

Additional observations from a re-analysis of the deposited data

Results flagged for a closer look

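The IM effect differed between K562 and KBM5 by the limma test of the difference for 6 genes, with log2 differences of 2.93 for HBZ, 3.37 for HBE1, 2.30 for HBA1, 3.82 for HBB, 3.23 for HBD and 4.59 for AHSP, each higher in K562. The OR21 effect differed for AHSP, by 2.37, a call lost without any 1 of the 4 K562 arrays (adjusted p between 0.222 and 0.283) and with log2(value + 16) (0.370). For all of these the KBM5 arrays were below background. HBA1 did not pass after quantile normalization (2.02), with trend and robust moderation, with log2(value + 16), or without the K562 control, K562 IM, KBM5 control or KBM5 IM array (adjusted p between 0.0623 and 0.309 over these). HBZ did not pass when the control or the IM array of K562 was left out (adjusted p = 0.0842).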

How the results depend on the processing

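No paired analysis was possible because each line and treatment had 1 array and nothing paired arrays by number. With 1 array left out, the drug effects of that line came from 1 array pair each, with the spread estimated in the other line alone. Genes called for IM in K562 then numbered 4 to 7 (7 with all arrays), and for the difference in IM effect 4 to 7 (6). For OR21 in K562 and for the difference in OR21 effect the count ran from 0 to 1 (1), and it was 0 for both with the brighter genes alone, where AHSP was not tested, and 0 for both with log2(value + 16). With a shared OR21 by IM term, 1 gene was called for IM in KBM5 (0 otherwise), HBZ, which was below background on all 4 KBM5 arrays. The K562 over KBM5 count was 6 or 7 in each alternative. Values that changed sign when 1 array was left out were those of OR21 in K562 for HBA1 (-0.18 to 1.98), HBA2 (-0.070 to 1.80) and HBD (-1.93 to 0.15), and its difference between lines for HBZ (-0.078 to 1.62), HBA2 (-0.0020 to 1.87) and HBD (-1.71 to 0.38). The cause was not tested. Over all genes and all alternatives, calls for IM in K562 ran from 454 (without the K562 control or IM array) to 3201, against 2368. The difference in IM effect ran from 611 to 2208, against 1796. Calls ran from 4 to 32 for OR21 in K562, against 16, from 3 to 243 for OR21 in KBM5, against 96, and from 2 to 52 for the difference in OR21 effect, against 18. At least 2-fold in both K562 pairs of IM held for 5 genes, 7 at 1.5-fold and 4 at 3-fold. Each of these counts includes AHSP on its values below background, where its lower bound for IM over control was 1.24-fold. With the 99th percentile as background, AHSP was above it on 1 array, the combination, and HBD on 2.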
